A study of Homo sapiens with 17 samples.

Results

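The 10 glycolytic enzyme genes HK2, GPI, PFKP, ALDOA, TPI1, GAPDH, PGK1, ENO1, PKM and LDHA were followed through maps of N6-methyladenosine (m6A), a methylated adenosine of messenger RNA. Their members are the listed regions whose deposited overlap mark names an exon or an intron of these genes. There were 68 such regions of 77311 in 22Rv1, 99 of 110260 in LNCaP and 110 of 139373 in HPr1AR, and all 10 genes were listed in every line. 22Rv1 is a cancer line of the prostate able to grow when androgen is low, and LNCaP is a prostate cancer line that depends on androgen. HPr1AR, a line of non-malignant prostate epithelium, was grown in keratinocyte medium free of serum, whereas the cancer lines were grown in RPMI-1640 medium with serum. Every sample carried the genotype label WT and the treatment label vehicle, and the antibody of the pull-down was either specific for m6A or IgG, an immunoglobulin of no set target. The 17 samples were 2 m6A and 3 IgG samples of 22Rv1, 3 m6A and 3 IgG samples of LNCaP, and 3 m6A and 3 IgG samples of HPr1AR. The growth notes describe biological triplicates, but the labels do not tell whether the deposited table of 22Rv1 used a further m6A sample.

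Glycolysis splits glucose into pyruvate in the cytosol and yields ATP and NADH, and lactate dehydrogenase then turns pyruvate into lactate. Its enzymes are among the most abundant proteins of growing cells, and many tumours run the pathway at a high rate even with oxygen present. Healthy prostate epithelium is known for truncating citrate oxidation, while advanced prostate tumours tend towards higher glucose use. In messenger RNA, m6A is placed mainly in long internal exons and near stop codons, commonly inside a GGAC sequence, and a related cap modification lies on the first transcribed adenosine.

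The 3 deposited tables, 1 per line, hold no value per sample. Whole reads in the best window of each region were therefore recovered from the deposited fold and p-value, with the numerator taken to be the m6A pull-down after the tables' names. A window was 20 bp wide in every line, so that reads are comparable between genes at equal length. The recovered depths were 3.30 M m6A and 4.82 M IgG reads in 22Rv1, 3.92 M and 8.87 M in LNCaP, and 5.13 M and 11.7 M in HPr1AR. The log2 read ratio is the m6A share of these reads over the IgG share, so that 0 means equal shares. A region was called higher or lower where an exact two-sided binomial test of its reads gave a Benjamini-Hochberg adjusted p under 0.05 over all regions of the line. These p-values and the 95% exact intervals cover counting error in pooled reads only, and no spread between samples could be given. Where a pull-down had 0 reads it was set to 3 reads, and the ratio is then a bound. Where the deposited p was 0, the smallest reads that fit are given with the words "at least". The authors' test picked the best window and grows with m6A reads, so ratios of best windows can run high. The best windows of overlapping regions can lie at different places in different lines. Their positions were estimated from the window's number, with windows spread evenly over the region. This is exact only in regions without gaps, which were 63.4% of regions in 22Rv1, 59.3% in LNCaP and 58.2% in HPr1AR. All distances between windows given below rest on these estimates. The luminal markers KLK3, KLK2, FOLH1, HOXB13 and TMPRSS2 were all listed in the cancer lines, with summed IgG levels of 21.6 CPM (reads per M recovered reads) in 22Rv1 and 55.1 in LNCaP against 0.0854 in HPr1AR. The basal markers KRT5, KRT14, TP63, ITGB4 and LAMB3 summed to 0 CPM in 22Rv1 and 0.113 in LNCaP against 53.9 in HPr1AR. The design, not the labels, took HPr1AR as basal and the cancer lines as luminal, and the IgG levels went with this. In m6A reads, LAMB3 reached 10 in 22Rv1 and 5 in LNCaP, and HOXB13 reached 40 in HPr1AR.

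Few regions of the glycolytic enzyme genes were higher over IgG, and their ratios lay under those of regions at large. In the authors' deposited table, 68 of 68 member regions passed the adjusted p in 22Rv1, 95 of 99 in LNCaP and 110 of 110 in HPr1AR. Nearly all regions of those tables did so, with 99.3% in 22Rv1, 95.4% in LNCaP and 96.5% in HPr1AR. By the read ratio, 15 of 68 member regions (22.1%) were higher in 22Rv1, against 56.4% of all its regions. In LNCaP 26 of 99 (26.3%) were higher, against 40.1% of all regions, and in HPr1AR 22 of 110 (20%), against 40.6%. In 1 member region of LNCaP and 2 of HPr1AR the smallest fitting reads left the call undetermined, and these count as not higher. The median log2 read ratio of the member regions was 0.24 in 22Rv1, 0.49 in LNCaP and 0.50 in HPr1AR, while over all regions it was 2.10, 1.18 and 1.23 in the same lines. A single member region was lower, in LDHA of 22Rv1, where 0.936% of all regions were lower. None was lower in LNCaP or HPr1AR, where 0.159% and 0.122% of all regions were. At the level of genes, 6 of 10 members held a higher region in 22Rv1, 8 in LNCaP and 7 in HPr1AR, against 91.2%, 90.9% and 93.2% of all listed genes. PGK1 held none in any line. Of the exon regions, 15 of 60 were higher in 22Rv1, 23 of 73 in LNCaP and 17 of 74 in HPr1AR, against 51.7%, 44.4% and 45.7% of exon regions of all genes. Of the intron regions, 0 of 8 were higher in 22Rv1, 3 of 26 in LNCaP and 5 of 36 in HPr1AR, against 58.7%, 29.1% and 29%.

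**Figure D1:**
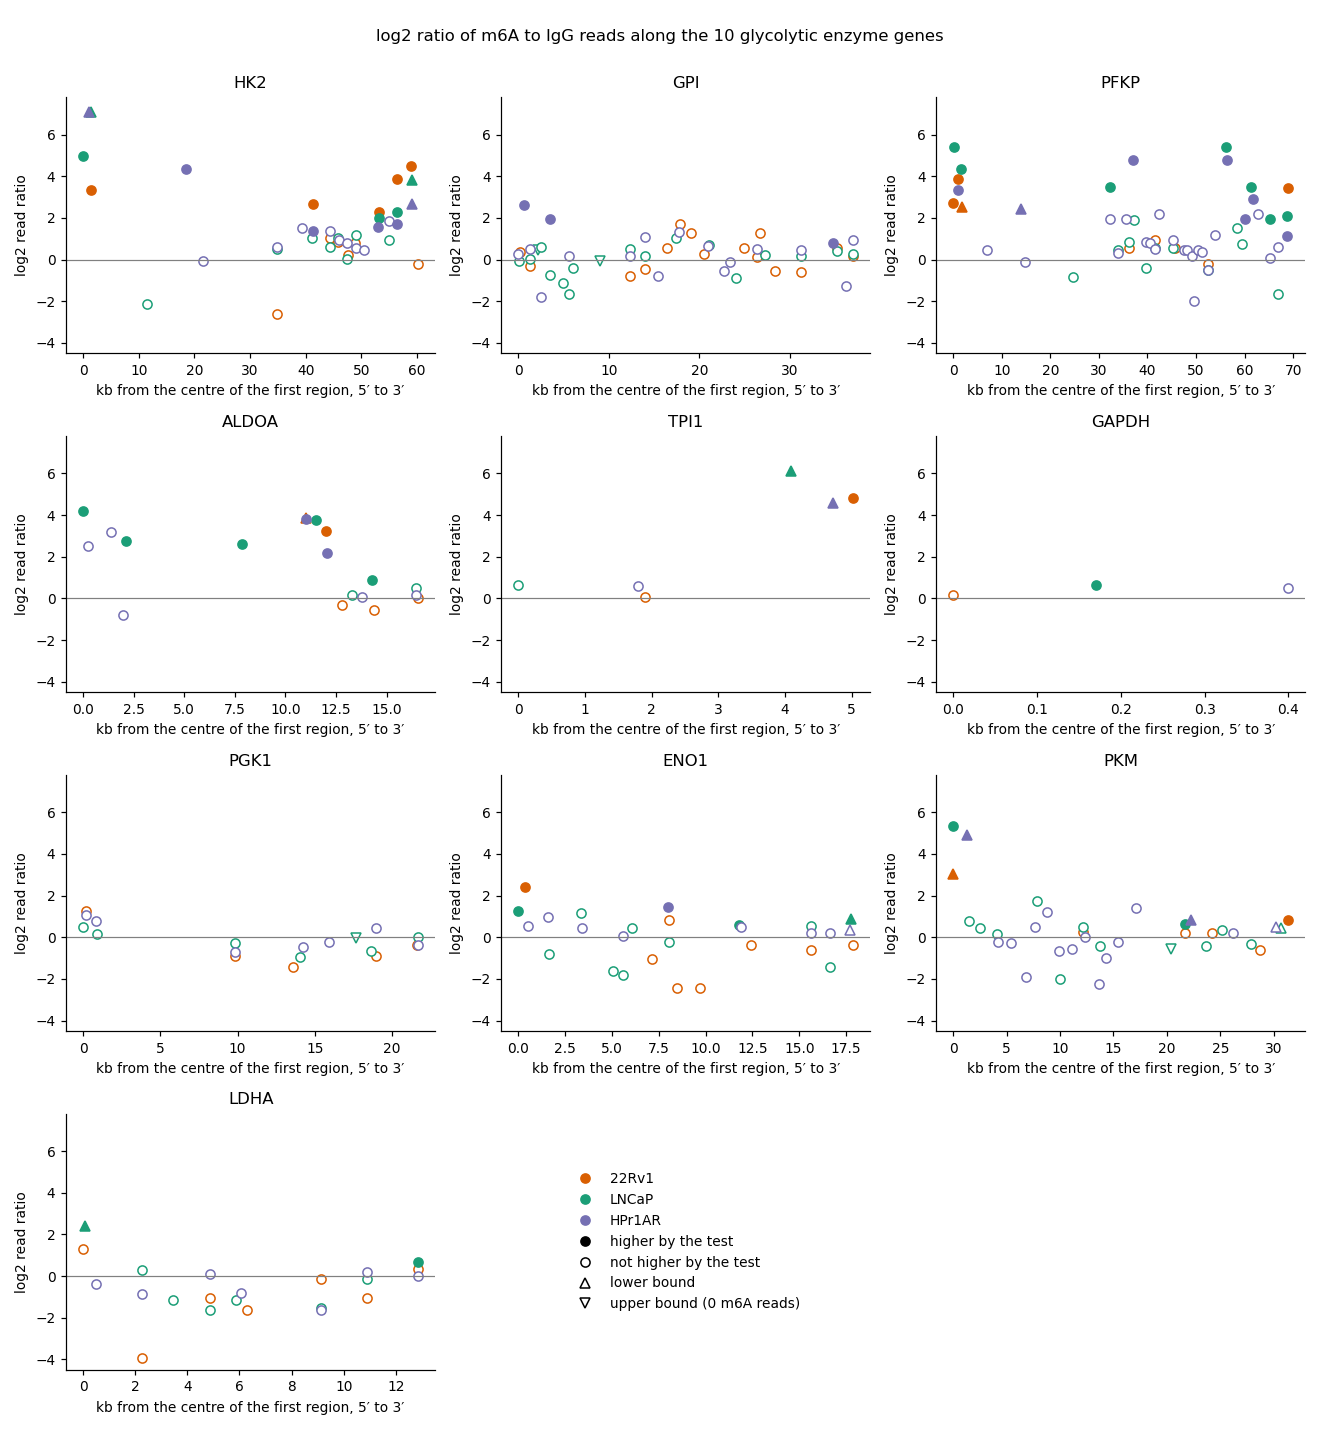
Log2 ratio of m6A to IgG reads in the best window of each region (vertical axis) against the distance in kb of the region's centre from that of the first region of the gene in any line (horizontal axis), for the 10 genes in 22Rv1, LNCaP and HPr1AR. Filled symbols are regions higher by the exact binomial test, upward triangles are lower bounds and downward triangles have 0 m6A reads. HK2, PFKP, ALDOA and PKM reach high values in a part of their regions, and every PGK1 symbol is open.

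HK2, hexokinase 2, which phosphorylates glucose as it enters the cell, was higher towards both ends in every line, and at some places between. Towards its 3′ end, the region with the smallest p in 22Rv1 lay at chr2:75117931-75120000 and had 77 m6A reads and 5 IgG reads, a log2 read ratio of 4.49 (95% interval 3.21 to 6.16, exact adjusted p = 9.00e-23). The overlapping region of LNCaP had at least 69 m6A and 11 IgG reads, a ratio of at least 3.83, and that of HPr1AR had at least 64 and 23 reads, a ratio of at least 2.67. All of these were higher over IgG. At the promoter-side exon, 22Rv1 had 35 m6A and 5 IgG reads at chr2:75060771-75062290 and a ratio of 3.35 (exact adjusted p = 1.2e-08). LNCaP had at least 61 m6A reads and 1 IgG read there, a ratio of at least 7.11, and HPr1AR at least 59 and 1, a ratio of at least 7.07. The inner region of 22Rv1 at 41.2 kb from the first region, with 13 and 3 reads and a ratio of 2.66, and that at 53.2 kb, with 23 and 7 reads and a ratio of 2.26, were higher too. The most 3′ listed region of 22Rv1, after the strong one, had 3 and 5 reads, a ratio of -0.19. None of the regions 44.3 to 50.5 kb from the first region was higher in any line. In LNCaP the region with the most IgG reads, at chr2:75107381-75107710, had 10 m6A and 22 IgG reads, a ratio of 0.04, and the same region of HPr1AR had 22 and 29 reads, a ratio of 0.79, which did not pass the test. Of its regions, 5 of 11 were higher in 22Rv1, 5 of 13 in LNCaP and 6 of 15 in HPr1AR.

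GPI, glucose-6-phosphate isomerase, which turns phosphorylated glucose into phosphorylated fructose, gave many regions and few calls. None of its 15 regions was higher in 22Rv1, where the smallest p was that of 9 m6A and 4 IgG reads (exact adjusted p = 0.0774). None of 18 was higher in LNCaP, where it was that of 17 and 19 reads, an approximation since no whole reads fit (exact adjusted p = 0.0984). In HPr1AR 3 of 18 were higher. The first of these in order of p, at chr19:34859471-34859960, had 12 m6A and 7 IgG reads, a ratio of 1.97 (95% interval 0.51 to 3.55, exact adjusted p = 0.0122). The region with the most IgG reads began at chr19:34890101 in all lines. There 22Rv1 had 52 m6A and 52 IgG reads with a ratio of 0.55, LNCaP had 58 and 98 with a ratio of 0.42, and HPr1AR had 44 and 58 with a ratio of 0.79. Only the last passed the test within its line (exact adjusted p = 0.0191), and the intervals of the 3 lines overlapped. For LNCaP 23 pairs of whole reads fit, with ratios of 0.40 to 0.83, and the call is that of the pair used.

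PFKP, the platelet form of phosphofructokinase, which commits sugar to glycolysis by adding the second phosphate, was higher at both ends in every line. The number of its higher regions was 4 of 8 in 22Rv1, 7 of 18 in LNCaP and 7 of 28 in HPr1AR. At the 5′ end, 22Rv1 had regions of 9 and 2 reads, 10 and 1 reads, and 12 and 0 reads, m6A before IgG. LNCaP had 19 m6A reads and 1 IgG read, a ratio of 5.43, and next to it 45 and 5 reads at chr10:3110511-3112160, a ratio of 4.35 (exact adjusted p = 3.88e-17). HPr1AR had 31 and 7 reads there, a ratio of 3.34. The 3′ end was also higher in all lines. It had 15 and 2 reads in 22Rv1 with a ratio of 3.45, 30 and 16 in LNCaP with a ratio of 2.08, and 27 and 28 in HPr1AR with a ratio of 1.14. Between the ends, none of the 4 regions of 22Rv1 was higher, with ratios from -0.19 to 0.96. An inner region of HPr1AR at chr10:3145831-3147700 had 48 m6A and 4 IgG reads, a ratio of 4.78. Its overlap mark names a promoter of the gene as well as an exon, so a transcription start inside the gene may lie there. An intron region of HPr1AR had 36 and 3 reads with the same ratio. The intron region overlapped that of LNCaP with 19 m6A reads and 1 IgG read, while 22Rv1 listed no intron region of the gene.

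ALDOA, aldolase A, which cleaves fructose bisphosphate into triose phosphates, was higher towards its 5′ side and near equal to IgG at its 3′ end. Of its regions, 2 of 5 were higher in 22Rv1, 5 of 7 in LNCaP and 2 of 7 in HPr1AR. The region at chr16:30075081-30075730 had 30 m6A and 0 IgG reads in 22Rv1, a ratio of at least 3.87, and that of HPr1AR, with a window within 100 bp, had 43 and 7, a ratio of 3.81. In LNCaP a longer region covered this place, and its best window, farther downstream, had 36 and 6 reads, a ratio of 3.76. The window of 22Rv1 within 100 bp of it had 13 and 2 reads, a ratio of 3.25, and was also higher. The last exon region, which held the most IgG reads of the gene, had 51 m6A and 74 IgG reads in 22Rv1, a ratio of 0.01. It had 77 and 124 reads in LNCaP, a ratio of 0.49, and 73 and 148 in HPr1AR, a ratio of 0.17, and none passed the test. The LNCaP reads were not unique, since 37 pairs of whole reads fit, with ratios of 0.43 to 0.86. The call there is that of the pair used. Every ALDOA region also lies in annotated introns of 6 other genes, among them SLX1A and BOLA2, and reads cannot be assigned between them.

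TPI1, triosephosphate isomerase, which interconverts the triose phosphates, had 2 regions in each line with opposite appearance. Its last region had 78 m6A and 4 IgG reads in 22Rv1, a ratio of 4.83 (95% interval 3.42 to 6.74). It had at least 62 and 2 reads in LNCaP, a ratio of at least 6.13, and at least 64 and 6 in HPr1AR, a ratio of at least 4.61. This region also covers exons of SPSB2, a gene of the other strand, and whether the counting used strand is not given in the sources used here. The best window lay far towards the region's 3′ side, at a share of 0.76 of its windows in 22Rv1, 0.90 in LNCaP and 0.90 in HPr1AR. The reads therefore cannot be assigned between TPI1 and SPSB2, and the higher calls may not belong to TPI1. The other region was not higher in any line. It had 57 and 80 reads in 22Rv1, 44 and 64 in LNCaP and 37 and 55 in HPr1AR, with ratios of 0.06, 0.64 and 0.62. For LNCaP 9 pairs of whole reads fit, with ratios of 0.57 to 0.99, and the call is that of the pair used.

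GAPDH, glyceraldehyde-3-phosphate dehydrogenase, which makes NADH, was covered by a single region per line, over 4660 bp in 22Rv1. It had 51 m6A and 66 IgG reads in 22Rv1, a ratio of 0.18 (95% interval -0.38 to 0.72, exact adjusted p = 0.61). LNCaP had 69 and 100 reads, a ratio of 0.64 (0.18 to 1.10), which passed the test (exact adjusted p = 0.0161). HPr1AR had 71 and 114 reads, a ratio of 0.51 (0.06 to 0.95), with an adjusted p of 0.0606. The LNCaP reads were not unique, since 24 pairs of whole reads fit the deposited values, with ratios of 0.60 to 1.03. The intervals of the 3 lines overlapped, no difference between lines passed the exact test between lines, and the region also touches an exon of IFFO1.

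PGK1, phosphoglycerate kinase 1, which makes the first ATP of the pathway, had no higher region among 5 in 22Rv1, 7 in LNCaP and 7 in HPr1AR. Its 5′ region came closest, with 13 m6A and 8 IgG reads in 22Rv1, a ratio of 1.25 (exact adjusted p = 0.114), and 12 and 13 reads in HPr1AR, a ratio of 1.07 (exact adjusted p = 0.156). LNCaP had 13 and 21 reads at that end, a ratio of 0.49, and its smallest p was that of an intron region with 0 and 7 reads (exact adjusted p = 0.205). The last exon region had 18 and 34 reads in 22Rv1, 28 and 62 in LNCaP and 22 and 64 in HPr1AR. The ratios there were -0.37, 0.03 and -0.35, and the interval reached no higher than 0.49 in 22Rv1, 0.70 in LNCaP and 0.37 in HPr1AR. These limits cover counting error in the best window alone, for the reads used, and not the rest of the 3′ end. In LNCaP 5 pairs of whole reads fit, with ratios up to 0.35, so its limit depends on the pair.

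ENO1, enolase 1, which makes phosphoenolpyruvate, had 1 higher region of 8 in 22Rv1, 3 of 11 in LNCaP and 1 of 9 in HPr1AR. In 22Rv1 its 5′ region at chr1:8938321-8939220, shared as in the other lines with the antisense RNA ENO1-AS1, had 11 m6A and 3 IgG reads, a ratio of 2.42 (exact adjusted p = 0.0105). In LNCaP the last region had at least 71 and 88 reads, a ratio of at least 0.87 (exact adjusted p = 8.00e-04), and in HPr1AR an inner region had 18 and 15 reads, a ratio of 1.45 (exact adjusted p = 0.0118). At the 5′ end LNCaP had 19 and 18 reads, a ratio of 1.26 that passed the test, and HPr1AR 19 and 30, a ratio of 0.53 that did not. The last region of HPr1AR, with the most IgG reads of the gene there, had at least 76 and 138 reads. Its ratio was at least 0.33 and its call was undetermined. The region of 22Rv1 with the most IgG reads, at chr1:8922951-8924160, had 37 and 83 reads and a ratio of -0.62, which did not pass the test as lower (exact adjusted p = 0.0559).

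PKM, pyruvate kinase M, which makes pyruvate and the last ATP of the pathway, was higher at its 5′ end in all lines. The first region had 17 m6A and 0 IgG reads in 22Rv1 at chr15:72522821-72524260, a ratio of at least 3.05 (exact adjusted p = 1.02e-06). It had 54 and 3 reads in LNCaP, a ratio of 5.35, and 40 and 0 in HPr1AR, a ratio of at least 4.93. Downstream, the exon regions with the most reads had ratios closer to 0. The exon region at chr15:72500951-72502830 of 22Rv1 had 48 and 60 reads, a ratio of 0.23. At the 3′ end 22Rv1 had 71 and 59 reads, a ratio of 0.81 that passed the test (exact adjusted p = 0.0039), LNCaP at least 74 and 122, and HPr1AR at least 78 and 128. For the LNCaP and HPr1AR regions the smallest fitting reads left the call undetermined. In all, 2 of 6 regions were higher in 22Rv1, 2 of 14 in LNCaP and 2 of 16 in HPr1AR.

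LDHA, lactate dehydrogenase A, which makes lactate and restores NAD+, held the only member region that was lower by the test in any line. In 22Rv1 the region at chr11:18418381-18418520 had 1 m6A and 22 IgG reads, a ratio of -3.91 (95% interval -9.28 to -1.28, exact adjusted p = 4.37e-04). The same exon had 13 and 24 reads in LNCaP, a ratio of 0.29, and 6 and 25 in HPr1AR, a ratio of -0.87, and neither passed. In LNCaP the first region had 7 and 0 reads, a ratio of at least 2.40, and the last region 60 and 86, a ratio of 0.66. That last exon region had 43 and 49 reads in 22Rv1, a ratio of 0.36, and 38 and 86 in HPr1AR, a ratio of 0.01, and neither passed the test. No region of the gene was higher in 22Rv1 or HPr1AR.

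**Figure D2:**
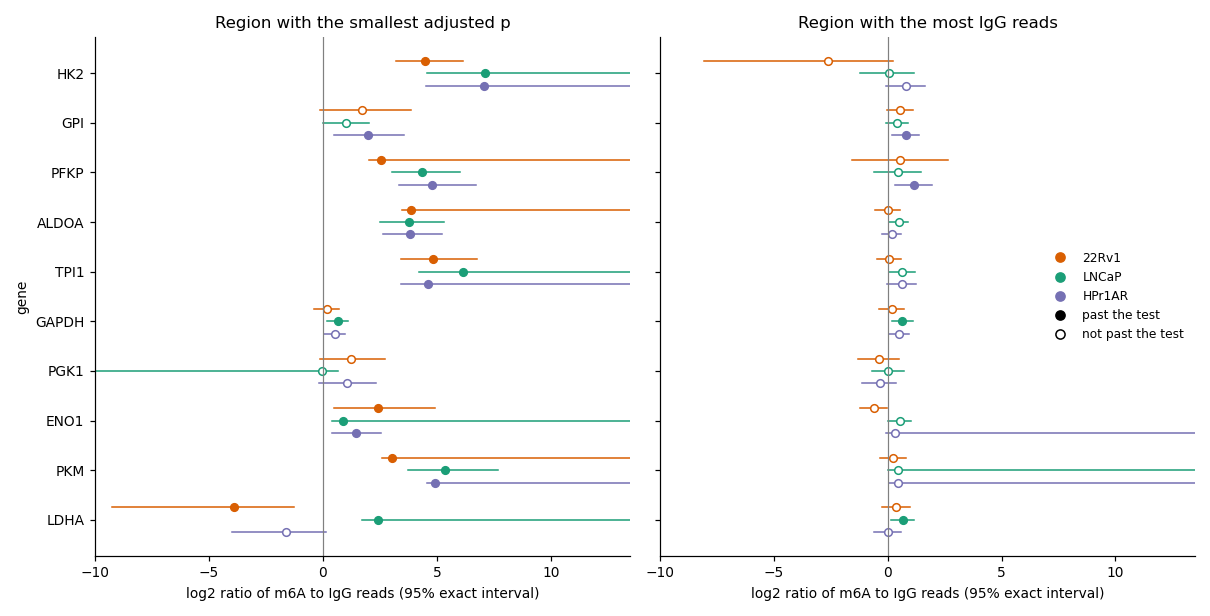
Log2 ratio of m6A to IgG reads with its 95% exact interval (horizontal axis) for each gene (vertical axis, in pathway order) in 22Rv1, LNCaP and HPr1AR, at left for the region with the smallest adjusted p and at right for the region with the most IgG reads. Lines that reach the right or left edge have no limit on that side. The median over the 10 genes was 2.48, 3.08 and 2.89 at left in the order of lines above, and 0.12, 0.48 and 0.49 at right. Ratios known only as a bound entered these medians at the bound.

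The 5′ regions carried promoter marks in the deposited overlaps, but so did some inner and last regions. Among these were the last PKM regions of LNCaP and HPr1AR and the lower LDHA region of 22Rv1. Sequences around annotated transcription starts are shown for the genes at the extremes of the 5′ end. HK2 and PKM were higher at the 5′ end in every line, and PGK1 in none. PFKP was higher there in every line too, and its 4 annotated starts are not shown. The stretches come from RefSeq (GRCh38.p14) and run from 100 bases before the annotated start, in lower case, to 30 transcribed bases, in capitals. HK2 has annotated starts 1043 bp apart and the deposited 5′ region is wide enough for both. The stretches are chr2:74834027-74834156 and chr2:74835070-74835199 on the plus strand for HK2, chr15:72231161-72231290 on the minus strand for PKM, and chrX:78104148-78104277 on the plus strand for PGK1.
HK2, upstream start: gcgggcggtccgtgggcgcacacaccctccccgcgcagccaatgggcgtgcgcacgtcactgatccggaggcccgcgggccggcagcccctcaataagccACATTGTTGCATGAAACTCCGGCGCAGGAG
HK2, downstream start: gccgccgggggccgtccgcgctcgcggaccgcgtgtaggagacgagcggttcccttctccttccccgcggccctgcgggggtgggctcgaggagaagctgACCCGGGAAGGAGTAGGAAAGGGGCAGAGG
PKM: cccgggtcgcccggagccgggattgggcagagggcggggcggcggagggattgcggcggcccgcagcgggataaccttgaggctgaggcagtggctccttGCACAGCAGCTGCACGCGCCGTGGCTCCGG
PGK1: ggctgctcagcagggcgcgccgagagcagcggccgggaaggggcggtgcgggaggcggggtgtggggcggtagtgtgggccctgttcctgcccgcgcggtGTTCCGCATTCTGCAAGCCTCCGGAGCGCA
Both HK2 starts open with A, and the PKM and PGK1 starts with G. Over all 18 annotated starts of the 10 genes, 7 opened with A, against 44.4% of 35116 RefSeq promoters. The sequence GGAC was searched on the transcribed strand in the first 50 transcribed bases. It was found at 1 of the 18 starts, in PFKP, against 18.9% of all promoters, and no match was found in HK2, PKM or PGK1. On either strand of the whole 300-base window, GGAC stood at 16 of 18 starts, against 87.4% of all promoters. The windows of the member genes had a median GC content of 70.3%, from 53.3% to 79.7%, against 58.7% over all promoters; their part in the read ratios was not tested. The deposited coordinates above are those of the tables and belong to another build, so the stretches cannot be laid over them base by base.

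Along the genes, the share of higher member regions lay under that of all genes at each position, except at the first regions of LNCaP. Exon regions were ordered on the gene's strand as the first, the last and those between. At the first exon region 5 of 9 genes were higher in 22Rv1, 6 of 9 in LNCaP and 3 of 9 in HPr1AR, against 69.1%, 65.9% and 71.6% of all genes. At the last one the counts were 3 of 9 in 22Rv1, 5 of 9 in LNCaP and 3 of 9 in HPr1AR, against 72.9%, 68.3% and 69.6%. The last regions of PKM in LNCaP and of PKM and ENO1 in HPr1AR were undetermined and count as not higher. Of the regions between, 7 of 41 were higher in 22Rv1, 11 of 54 in LNCaP and 11 of 55 in HPr1AR, against 37.3%, 30.6% and 32.6%. Genes with a single exon region stand outside these counts. Among them, GAPDH passed the test in LNCaP, where 77% of such regions did, and not in 22Rv1 or HPr1AR, where 78.8% and 81.3% did. The members with a higher last region in 22Rv1 were PFKP, TPI1 and PKM. In LNCaP they were HK2, PFKP, TPI1, ENO1 and LDHA, and in HPr1AR they were HK2, PFKP and TPI1. The reads of the TPI1 region cannot be assigned between TPI1 and SPSB2 in any line. No test of these counts was made, since the genes were chosen by name.

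**Figure D3:**
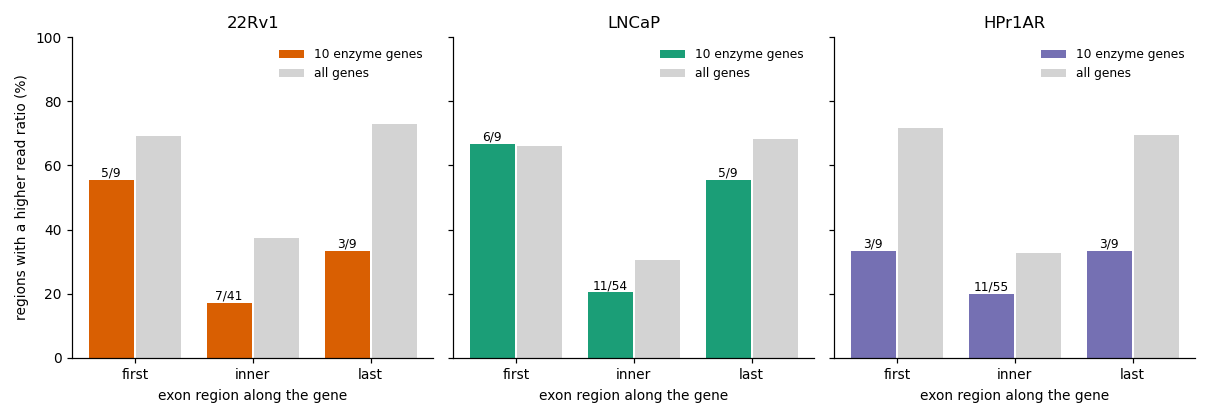
Share of exon regions with a higher m6A read ratio (vertical axis, percent) at the first, inner and last exon regions (horizontal axis) of the glycolytic enzyme genes, coloured, and of all genes, grey, in 22Rv1, LNCaP and HPr1AR. Numbers above the coloured bars give higher regions of all member regions; the coloured bar stands below the grey one everywhere except at the first regions of LNCaP, with 6 of 9.

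Most of the 10 genes were at the top of the IgG read level. Their regions with the most IgG reads had ratios from -0.62 to 0.79. HK2 in 22Rv1, at -2.62, and PFKP in HPr1AR, at 1.14, lay outside this range. The ratios of PKM in LNCaP and HPr1AR and of ENO1 in HPr1AR are lower bounds. Most of the others in LNCaP rest on 1 of several fitting read pairs, so the upper end is not firm. The region with the most IgG reads put GAPDH at percentile 99.3 of genes in 22Rv1, 99.4 in LNCaP and 99.4 in HPr1AR. ALDOA, ENO1, PKM, GPI, LDHA, TPI1 and PGK1 lay at or above percentile 94.8 in every line. HK2 lay lower, at percentile 61.8 in 22Rv1, 78.1 in LNCaP and 81.8 in HPr1AR, and so did PFKP, at 40.3 in 22Rv1, 79.3 in LNCaP and 80.5 in HPr1AR. In bulk RNA, more cells with a transcript and more transcript per cell cannot be told apart. Among member regions with at least 50 IgG reads, 1 of 10 was higher in 22Rv1, 6 of 18 in LNCaP and 2 of 15 in HPr1AR. Over all genes, 22.7%, 56.3% and 57% of regions with as many IgG reads were higher in those lines. The call was undetermined in 1 of the member regions in LNCaP and 2 in HPr1AR, which count as not higher. Among all such regions it was undetermined in 9 of 920 in LNCaP and 42 of 1319 in HPr1AR. The median ratio of these member regions was 0.03 in 22Rv1, 0.51 in LNCaP and 0.21 in HPr1AR, against 0.12, 0.71 and 0.73 for all such regions. The part of the read level in the low share of higher member regions was not tested beyond this.

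**Figure D4:**
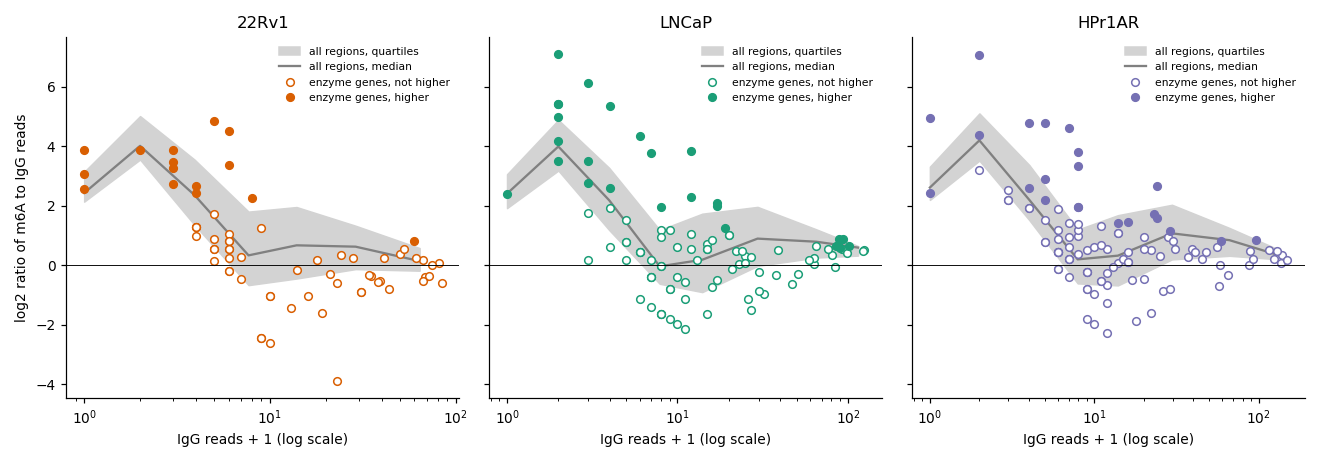
Log2 ratio of m6A to IgG reads (vertical axis) against IgG reads + 1 in the best window (horizontal axis, log scale) for the member regions in 22Rv1, LNCaP and HPr1AR, filled where higher by the test. The grey line and band are the median and quartiles of all regions of the line by IgG reads; in 22Rv1 the median of all regions falls to 0.12 at 50 or more IgG reads, and the member regions there range from -0.62 to 0.81.

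Between lines, the ratios of overlapping member regions mostly did not differ beyond counting error. Overlapping regions of 2 lines were compared by an exact conditional test of their reads, with the depths as the null and adjustment over all overlapping pairs other than those known as a bound. For 22Rv1 over LNCaP, 0 of 62 member pairs were higher and 2 lower, where 0.209% of all pairs were higher and 0.473% lower. For 22Rv1 over HPr1AR, 0 of 61 were higher and 0 lower, where 0.331% and 0.582% of all pairs were, and 10 member pairs had an unadjusted exact p under 0.05. For LNCaP over HPr1AR, 1 of 89 was higher and 3 lower, where 0.414% and 0.415% of all pairs were. The median difference over member pairs was -0.37 for 22Rv1 over LNCaP, -0.39 for 22Rv1 over HPr1AR and 0.01 for LNCaP over HPr1AR, against -0.10, -0.25 and -0.25 over all pairs. The table medians themselves differed by 0.93, 0.87 and -0.05 in the same order. Set against these medians, 13 member pairs of 22Rv1 over LNCaP and 12 of 22Rv1 over HPr1AR were lower. The null then lay above the median over all pairs in both comparisons, which moves pairs of any gene towards lower. The share of all pairs that were lower at this setting was not counted, so these counts have no base beside them and say nothing about the enzymes as such.

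The called pairs lay in ALDOA, PFKP and PKM, and 5 of the 6 set windows at different estimated positions in unequal regions against each other. ALDOA had 31 m6A and 66 IgG reads in 22Rv1 at chr16:30078541-30078990, against 75 and 93 in LNCaP, a difference of -1.41 with an adjusted p of 0.042. By the estimated positions, this was the only called pair whose windows lay within 100 bp of each other. A larger difference of -4.09 in ALDOA, between 18 and 33 reads in 22Rv1 and 36 and 6 in LNCaP, compared windows over 100 bp apart in a short and a long region. The same LNCaP window gave a difference of 3.69 when set against 62 and 135 reads in HPr1AR. PFKP had 12 and 15 reads in LNCaP, against 48 and 4 in the longer region of HPr1AR, a difference of -3.92. No whole reads fit the deposited values of this LNCaP region, so its reads are an approximation. In PKM, the LNCaP regions of 3 and 5 reads and of 3 and 4 reads overlapped the long HPr1AR region of 40 and 0 reads, with differences of at most -4.49 and -4.16. With regions required to overlap by at least 50% of each, 0 member pairs were called between any lines. LDHA at the exon that was lower in 22Rv1 differed from LNCaP by -4.21, with an exact p of 6.27e-04 and an adjusted p of 0.0762.

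**Figure D5:**
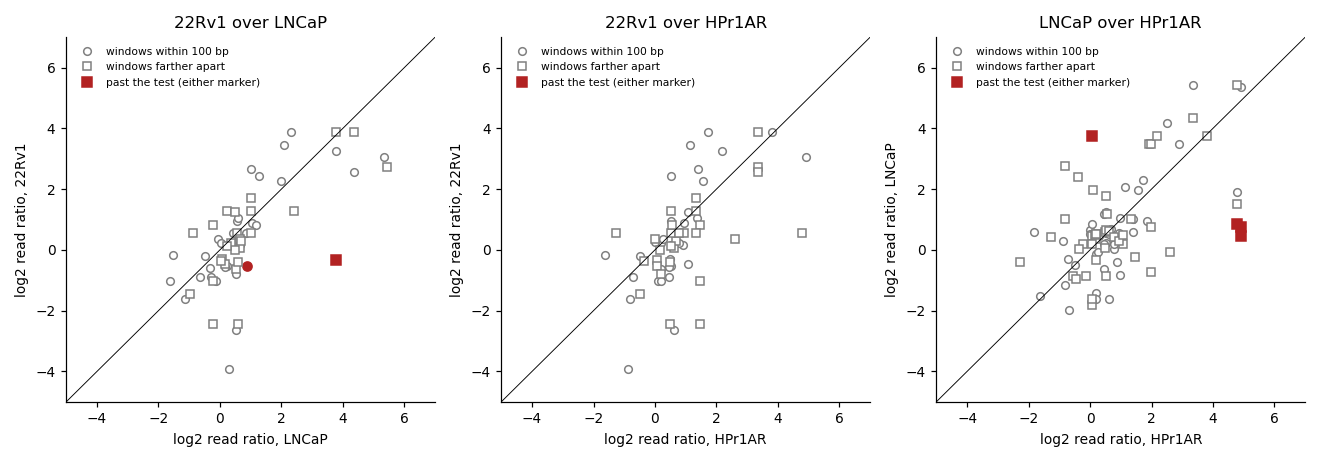
Log2 read ratio of member regions in the line named first (vertical axis) against that of the overlapping region in the line named second (horizontal axis) for 22Rv1 over LNCaP, 22Rv1 over HPr1AR and LNCaP over HPr1AR. Circles are pairs with windows within 100 bp by estimated position, and squares are pairs farther apart. Red symbols are pairs past the test, and the line marks equal ratios. Of the 6 red symbols, 5 are squares.

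Among other genes of the pathway or near it, 93.1% of those listed held a higher region in 22Rv1, 90% in LNCaP and 90% in HPr1AR, against the 91.2%, 90.9% and 93.2% of all genes given above. The list held 39 genes of isoforms, glucose and lactate transporters and regulators, and some genes outside glycolysis itself, such as PDHA1, MPC1, MPC2, FBP1 and PGAM5. Of these 39 genes, 29 were listed in 22Rv1, 30 in LNCaP and 30 in HPr1AR. A higher region was found in 27 of them in each line, and none had a lower one. By region, 45.0% of theirs were higher in 22Rv1, 35.3% in LNCaP and 38.1% in HPr1AR, against 53.2%, 37.8% and 37.5% of regions within all genes. PGAM5, which is not a glycolytic enzyme, held 11 of the 77 higher regions in 22Rv1, 12 of 77 in LNCaP and 11 of 94 in HPr1AR. In 22Rv1 the smallest p-values belonged to SLC16A3, a lactate exporter, with 69 m6A reads and 1 IgG read, to ADPGK, an ADP-dependent glucokinase, with 71 and 2, and to PFKFB3, which makes an activator of phosphofructokinase, with 76 and 4. In LNCaP they belonged to the lactate transporter gene SLC16A1, with at least 65 and 1 reads, to BPGM, with 74 and 7, and to the liver phosphofructokinase PFKL, with at least 61 and 3. In HPr1AR they belonged to PFKL, with at least 68 and 3 reads, to GAPDHS, with at least 60 and 3, and to SLC16A1, with at least 65 and 6. The GAPDHS region also covers exons of TMEM147. The best-read region of a listed gene of this kind had a median of 10 IgG reads in 22Rv1, 17.5 in LNCaP and 15 in HPr1AR, against 56, 88.5 and 75 for the 10 enzymes.

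Lists of ribosomal protein and proteasome genes were set beside the enzymes, but were not matched to them in read level. In 22Rv1, LNCaP and HPr1AR, the best-read region of a ribosomal gene had a median of 26, 39 and 36.5 IgG reads. That of a proteasome gene had 22.5, 31 and 35, against 56, 88.5 and 75 for the 10 enzymes. Genes with a higher region made up 91.2%, 90.9% and 93.2% of all listed genes. The ribosomal list had a higher region in 35 of 81 genes in 22Rv1, 47 of 81 in LNCaP and 52 of 82 in HPr1AR, with median ratios over regions of 0.24, 0.30 and 0.36. The proteasome list had one in 30 of 36, 30 of 36 and 33 of 36, with median ratios of 0.45, 0.44 and 0.19. The medians of the 10 enzymes were 0.24, 0.49 and 0.50, under both lists in 22Rv1, where that of the ribosomal list was equal to 2 decimals, and above both in LNCaP and HPr1AR. By region, 20.3%, 24.2% and 28% of the ribosomal list were higher, and 33.5%, 26.6% and 22.2% of the proteasome list. Of the enzyme regions, 22.1%, 26.3% and 20% were higher, and of regions within all genes 53.2%, 37.8% and 37.5%. No test between the lists was made.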

How the data were processed

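RNA pulled down with an m6A antibody or IgG (EpiMark kit, sequenced on a NovaSeq, per the labels' protocols) was compared within 22Rv1, LNCaP and HPr1AR, in 3 tables. The authors deposited, per the file headers, p-values, adjusted p-values and log2 folds per region of neighbouring windows, with counts of windows up and down and overlapping gene marks; which samples entered is not stated. Which aligner and which test the authors ran is not given in the sources used here. The submitters' processing notes name hg 38, but of the member regions only 3 of 68 in 22Rv1, 5 of 99 in LNCaP and 7 of 110 in HPr1AR lay in the GRCh38 span of their gene, so coordinates are printed as deposited, with the build unknown.

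The deposited log2 fold followed the log2 of numerator reads minus 2 times the log2 of reference reads plus a constant, and the p-value a likelihood ratio test of that contrast, with priors fitted per line. Whole reads were sought that gave both: 1 or several pairs were found for 99.99% of regions with p above 0 in 22Rv1, 98.4% in LNCaP and 99.999% in HPr1AR. Of the member regions, several pairs fit in 2, 34 and 2 in these lines, and the pair whose p-value lay nearest the predicted one was used, not that nearest the fold as the design had it. In 4 member regions of LNCaP no pair fit and the reads were approximated. The design was written for such reads. Depths rest on the assumption that priors scale with depth, and were not checked against sequenced reads. The steps were tried on simulated regions of a single window, drawn from the fitted model itself. That trial does not check the reads of regions with many windows.

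Reads were set against depths with exact binomial tests, and between lines with exact conditional tests in the form of Fisher's test (SciPy 1.17.1, Python 3.11.15). Intervals and the floor of 3 reads cover counting error only, and PCR copies were not marked. The 10 genes and all lists were chosen with earlier results of these data known. Each gene's named regions were that with the smallest adjusted p and that with the most IgG reads, and other regions named were chosen after their values were seen. Of the other glycolysis genes, the 3 with the smallest p per line were named. Columns with values per sample that were left unused numbered 0. A luminal marker of the design is not reported here.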

Additional observations from a re-analysis of the deposited data

Results flagged for a closer look

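Differences between lines in overlapping regions past the exact conditional test were found in 6 pairs, all in ALDOA, PFKP and PKM. In ALDOA, 22Rv1 over LNCaP gave differences of log2 read ratio of -4.09 and -1.41, and LNCaP over HPr1AR gave 3.69. In PFKP, LNCaP over HPr1AR gave -3.92. In PKM, it gave -4.49 and -4.16, where the HPr1AR region had 0 IgG reads and both values are upper bounds. Apart from the difference of -1.41, these compare windows whose estimated positions lie over 100 bp apart. No pairs were called where regions had to overlap by at least 50% of each.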

How the results depend on the processing

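No paired analysis was possible because the tables hold no value per sample, and for the same reason no sample could be left out in turn. With the null at the median of all regions, 4 member regions were higher in 22Rv1, 9 in LNCaP and 9 in HPr1AR, and 35, 19 and 20 were lower. At an adjusted p of 0.01, 17 were higher in LNCaP and 14 in HPr1AR. The share of all regions called was not counted at either setting, so these counts have no base beside them. Over all regions, those with 5 to under 10 IgG reads had a median ratio of 0.32 in 22Rv1, -0.04 in LNCaP and 0.19 in HPr1AR. These lie under the median of all regions, which was the null. With at least 50 IgG reads, a limit chosen after seeing the data, 1 was higher in 22Rv1, 6 in LNCaP and 2 in HPr1AR. With the region of most IgG reads in place of that with the smallest p, the median ratio of the 10 genes was 0.12 in 22Rv1, 0.48 in LNCaP and 0.49 in HPr1AR, and in 22Rv1 the ratio of ENO1 became -0.62, that of HK2 -2.62 and that of LDHA 0.36. Ratios known only as a bound entered these medians at the bound. Relative to the table median, the median of the 10 genes was 0.38 in 22Rv1, and in LNCaP the ratio of GAPDH became -0.54 and that of ENO1 -0.31. Of differences between lines, 0 were called by reciprocal overlap of 50%, and 0 among windows within 100 bp, a limit also chosen after seeing the data, when p-values were adjusted over such pairs alone; adjusted over all pairs, the ALDOA difference of -1.41 is such a call. Relative to the table medians, where the share of all pairs was not counted, 13 were called for 22Rv1 over LNCaP and 12 for 22Rv1 over HPr1AR. The cause of these changes was not tested. Exon overlap alone, the lowest of several fitting read pairs, leaving out regions known as a bound, leaving out regions that overlap another gene, and the shared read rate changed no count of higher member regions by more than 1.5 times. The highest of several fitting pairs was not tried, so whether more regions would then be higher is not known. Where IgG reads are few, as in most HK2 and PFKP regions, depth limits the size that can be given to a ratio.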

Other observations

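Regions upstream of the start, marked as promoter only, were not counted among the members. For ALDOA such a region had 17 m6A reads and 1 IgG read in 22Rv1, a ratio of 4.63, at chr16:30064091-30064320, and another 6 and 2 reads in LNCaP. It lies in introns of several overlapping genes. For GAPDH, 22Rv1 had 6 and 1 reads, LNCaP 20 and 3 in a region shared with an exon of NCAPD2, and HPr1AR 10 and 0, a ratio of at least 2.93. For PFKP, LNCaP had 11 and 0 reads, a ratio of at least 3.05, and HPr1AR 8 and 0, a ratio of at least 2.61. For GPI, LNCaP had 10 and 1 reads, a ratio of 4.50, although no exon or intron region of the gene was higher in that line. Upstream of TPI1, 22Rv1 had 41 and 25 reads and HPr1AR 36 and 24, in a region that covers exons of USP5. The regions named so far were higher by the exact binomial test, and a GAPDH region of 22Rv1 with 30 and 29 reads, a ratio of 0.60, also shared with NCAPD2, was not.

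Processed pseudogenes are known for several of the 10 genes. By symbol, only TPI1P2 was listed, with 0 IgG reads in its best-read region in 22Rv1, 1 in LNCaP and 34 in HPr1AR.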
